A study of Mus musculus with 14 samples.

Results

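The genes of autophagy and of the lysosome were examined in livers of obese mice after canagliflozin or a weight-matched calorie cut. They comprise 39 listed genes, from the kinase complex that starts an autophagosome to the transcription factors that act on lysosomal genes. A gene counted as measured where a probe set was annotated with its symbol alone, and where it had several, the one with the highest average in the 14 arrays stood for it. By this rule 37 of the 39 genes were measured, among 22180 genes in all. Optn, a cargo receptor, had no probe set annotated with that symbol, and the probe set of Bnip3l, a mitophagy receptor, also carries the symbol of the pseudogene Bnip3l-ps, so neither is analysed here. The list names genes of the pathway, and it was drawn up with earlier results of these data known.

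Male C57Bl/6J mice, 6 weeks old at the start, were made obese with 4 weeks of a 60% high-fat diet (HFD) and then spent 4 further weeks in 1 of 3 arms. The canagliflozin arm (n = 5 arrays) kept the diet and received the drug at 30 mg/kg by the sample labels, or 25 to 30 mg/kg by the treatment protocol. The caloric restriction arm (n = 5) ate 15 to 30% less, so that body weight followed that of the drug arm. The HFD control arm (n = 4) stayed on the diet. No lean or fasted group is among the samples, so every arm carries the obesity and the diet. Canagliflozin inhibits SGLT2, the transporter that recovers filtered glucose in the kidney, and its use costs the body calories as glucose in urine. The comparisons ask what the drug does to hepatic transcripts, what a weight-matched calorie cut does without it, and what separates them.

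Autophagy encloses cytoplasm, damaged organelles, glycogen or lipid in a membrane that fuses with a lysosome, where the content is broken down and recycled. Nutrient shortage relieves the brake that the kinase complex mTORC1 places on the ULK1 complex, and a lipid kinase complex then marks the site where the membrane grows. A pair of ubiquitin-like conjugation systems attaches the Atg8 proteins, LC3 and the GABARAP proteins, to that membrane, and cargo receptors bind them. In liver the pathway is known for its activity in fasting, where it supplies amino acids and fatty acids, and the transcription factors TFEB and TFE3 raise genes of the lysosome and of autophagy when nutrients are short. Much of this control acts on proteins by phosphorylation and lipid attachment, which an RNA array does not measure.

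TFEB and TFE3 bind an element whose core is the palindrome CACGTG. This core was searched in the 250 bases before each gene's start in RefSeq promoter windows of build GRCm38.p6, where 31 of the 37 genes had an entry. Map1lc3a, Rb1cc1, Atg16l1, Atg12, Becn1 and Pik3c3 had none. At least 1 copy was present in 5 of the 31 genes (16.1%), against 1854 of all 27025 genes of the table (6.86%). Lamp1 held 4 copies, Atg3 held 2, and Atg5, Atg7 and Bnip3 held 1 each. Of all 27025 genes, 5 held as many copies as Lamp1 or more. The longer word TCACGTG, searched on both strands and always overlapping the core, was present in 3 of the 31 genes (9.68%), namely Lamp1, Atg3 and Atg7, against 968 of all genes (3.58%). The windows below show Lamp1, which has the most copies, and Map1lc3b and Ulk2, the genes with the smallest p under the drug, which have none in this window. Capitals mark CACGTG, and each line runs 5′ to 3′ toward the start of the gene.
Lamp1, chr8:13158911-13159160, plus strand: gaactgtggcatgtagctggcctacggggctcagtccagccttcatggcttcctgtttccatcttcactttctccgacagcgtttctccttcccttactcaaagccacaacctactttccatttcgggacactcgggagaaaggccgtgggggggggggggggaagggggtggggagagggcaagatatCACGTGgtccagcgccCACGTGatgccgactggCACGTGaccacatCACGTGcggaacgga
Map1lc3b, chr8:121590188-121590437, plus strand: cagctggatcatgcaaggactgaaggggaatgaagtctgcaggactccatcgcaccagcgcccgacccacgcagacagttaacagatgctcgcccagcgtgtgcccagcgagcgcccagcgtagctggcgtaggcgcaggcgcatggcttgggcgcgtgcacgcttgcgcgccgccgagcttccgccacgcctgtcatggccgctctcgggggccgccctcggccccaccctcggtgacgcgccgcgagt
Ulk2, chr11:61855093-61855342, minus strand: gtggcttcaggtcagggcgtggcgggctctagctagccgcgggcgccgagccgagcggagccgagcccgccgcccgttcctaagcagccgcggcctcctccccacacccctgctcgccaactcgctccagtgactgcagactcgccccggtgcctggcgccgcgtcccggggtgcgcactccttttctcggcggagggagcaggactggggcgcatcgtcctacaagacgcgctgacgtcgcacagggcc

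All values are log2 RMA values, in which a difference of 1 is a 2-fold difference, and a value is not compared between genes. Array medians ran from 4.07 to 4.13, and correlations over genes from 0.986 to 0.992 between any pair. RMA equalises array distributions, so the close medians do not test array quality. The number of arrays limits the precision. All 7 hepatocyte markers were measured, Alb and Ttr among them, with means from 9.28 to 14.01. The median autophagy value of an array lay between 7.02 and 7.26 under canagliflozin, 7.06 and 7.36 under caloric restriction and 7.12 and 7.23 in HFD controls. The probe set of Tfeb had a mean of 4.82 over the arrays, and those of the other 36 genes had means of at least 5.66, which does not order the genes by expression. The standard deviation within groups, pooled over the 3 groups, had a median of 0.14 over the 37 genes, 0.18 over all genes and 0.17 over the 9300 genes with a mean of at least 5, a level that 36 of the 37 reach, and ran from 0.08 for Atg16l1 to 0.29 for Ulk1.

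Under canagliflozin, against HFD controls, the autophagy genes stayed close to the control level. Their log2 differences had a median of 0.02, against -0.00 over all genes, with 20 of 37 higher and 17 lower in mean, and they ran from -0.24 for Ulk2 to 0.43 for Map1lc3b. In limma, 0 of the 37 genes passed an adjusted p of 0.05 (smallest adjusted p = 0.647), and the same was true of 0.0% of all 22180 genes. At an unadjusted p under 0.05 there were 2 of 37, near the 6.51% of all genes: Map1lc3b was higher (3.21% of all genes were called in that direction) and Ulk2 was lower (3.3%). The 95% confidence interval of the difference lay within 1.5-fold either way for 36 of the 37 genes (92.0% of all genes), and Map1lc3b was the exception. One gene, Atg16l1, had all 5 drug-treated mice above all 4 controls, as did 0.987% of all genes, and none had all of them below (0.965% of all genes).

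Under caloric restriction, against the same HFD controls, the differences were of similar size. Their median was -0.02, against 0.00 over all genes, with 16 of 37 genes higher and 21 lower, and they ran from -0.17 for Ulk2 to 0.26 for Map1lc3b. In limma 0 of 37 passed an adjusted p of 0.05 (smallest adjusted p = 0.999, with 0.0% of all genes called). Map1lc3a was the 1 gene with an unadjusted p under 0.05 (3.93% of all genes, 2.06% in that direction), and 0 were lower (1.87%). The confidence interval lay within 1.5-fold either way for 36 of 37 genes (93.9% of all genes), Map1lc3b being the exception again with an upper bound of 0.59 where 1.5-fold is 0.58. In 0 of 37 genes did the groups not overlap, against 0.703% of all genes for higher and 0.694% for lower values.

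Canagliflozin against caloric restriction tests whether the arms differ from each other at matched weight. The median difference was 0.02, against -0.00 over all genes, and values ran from -0.14 for Atg4c to 0.21 for Atg10. In limma 0 of 37 genes passed an adjusted p of 0.05 (0.00451% of all genes did, which is 1 gene, Rtkn, chosen after its values were seen). At an unadjusted p under 0.05 there were also 0 of 37, against 6.05% of all genes (3.07% higher and 2.98% lower). In 0 of 37 genes did the groups not overlap, against 0.437% of all genes for higher and 0.491% for lower values. The confidence interval lay within 1.5-fold either way for all 37 genes (93.9% of all genes). These intervals bound the size of a difference, and a p above the threshold does not show that the arms act alike.

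**Figure D1:**
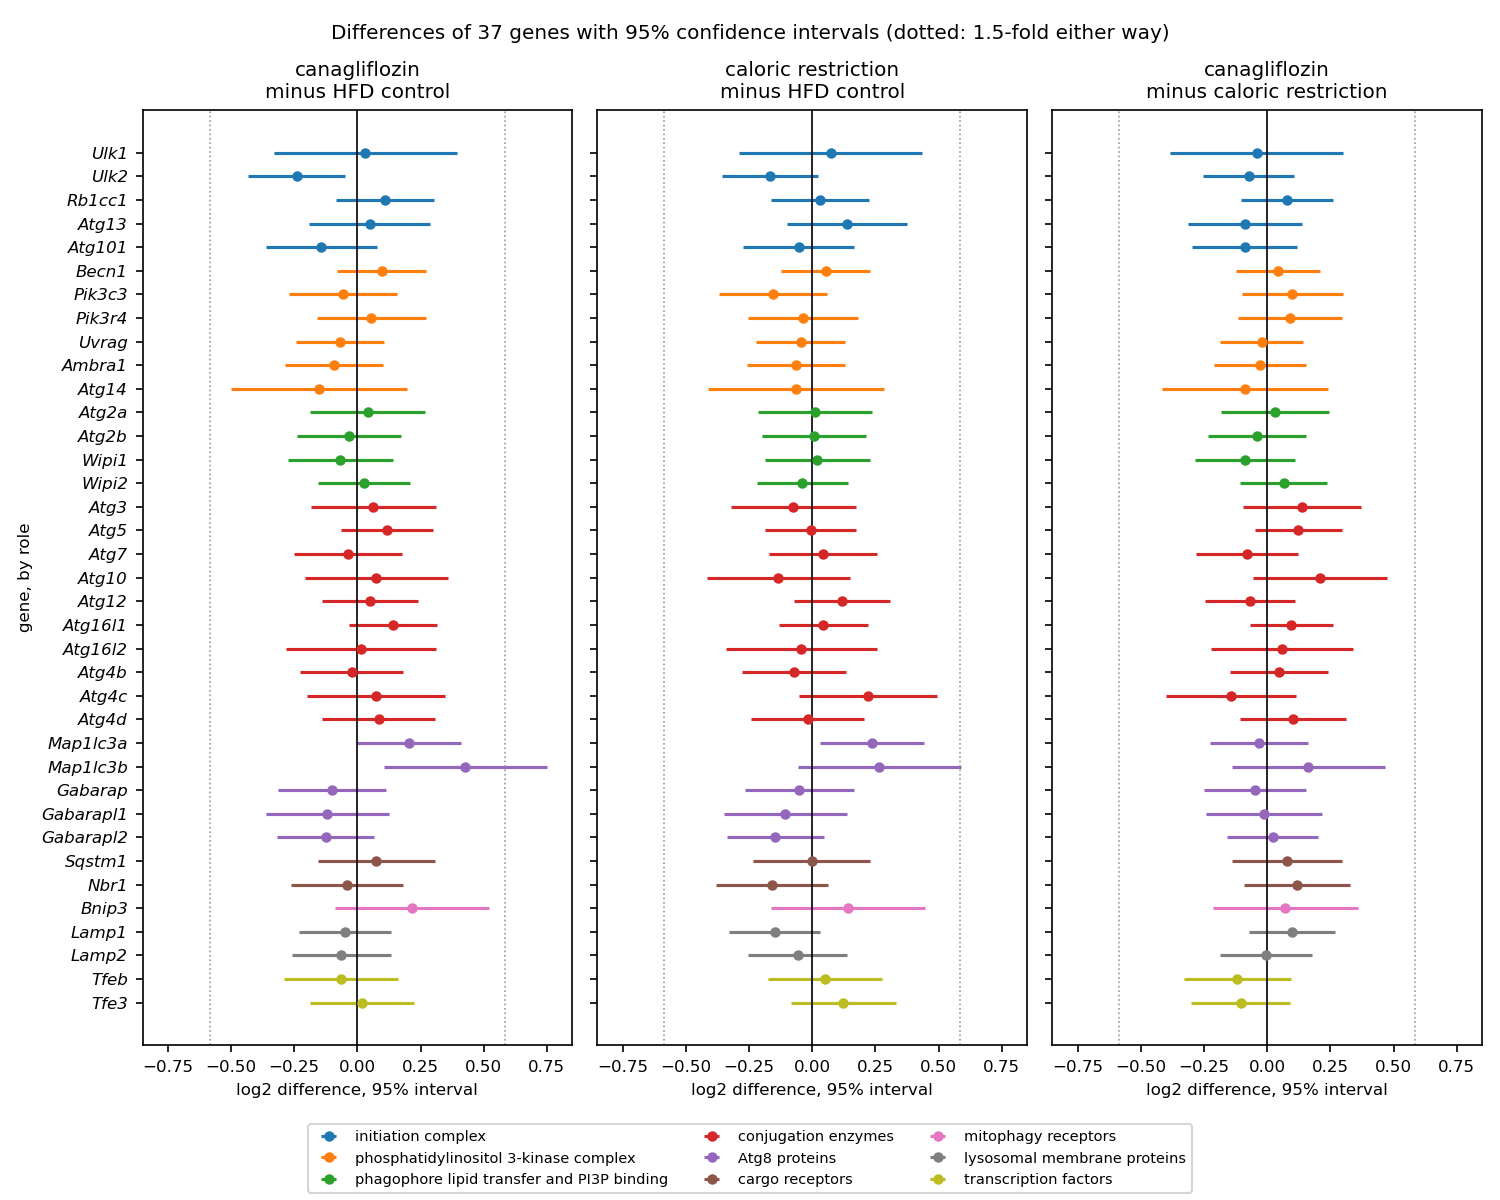
Log2 differences of the 37 measured autophagy and lysosome genes (rows, coloured by role) in the 3 comparisons, as points with 95% confidence intervals from limma over 14 arrays; the dotted lines mark 1.5-fold either way. The intervals of 36 genes under canagliflozin and of 36 under caloric restriction, each against HFD controls, lie inside the dotted lines, and Map1lc3b reaches past them in both.

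The Atg8 proteins are the membrane-bound markers of the autophagosome, and the LC3 and GABARAP branches differed in direction of their means. Map1lc3b, which encodes LC3B, the protein most used to follow autophagy, had 9.94, 10.46, 9.62, 10.40 and 10.30 under canagliflozin (replicates 1 to 5), 9.91, 10.01, 9.90, 9.94 and 10.15 under caloric restriction and 9.46, 9.58, 9.88 and 9.95 in HFD controls (replicates 1 to 4). Canagliflozin replicates 2, 4 and 5 lay above every control, replicates 1 and 3 lay among the controls, and 2 of 5 restricted mice lay above every control with the other 3 in the upper range of the controls. Its mean was 10.14 ± 0.35 (SD, n = 5) under the drug, 9.98 ± 0.10 (n = 5) under restriction and 9.72 ± 0.24 (n = 4) in controls. The difference from controls was 0.43 ± 0.15 (SE) under the drug, or 1.34-fold (adjusted p = 0.647 in limma), and 0.26 ± 0.15 under restriction (adjusted p = 0.999). The unadjusted limma p under the drug was 0.0123. Without HFD control replicate 1 the differences were 0.34 and 0.18, and the unadjusted p under the drug was 0.0522. Between the arms it was 0.16 ± 0.14, with a 95% interval from -0.14 to 0.47.

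Map1lc3a, which encodes the related LC3A, had 6.50, 6.31, 6.34, 6.47 and 6.57 under canagliflozin, 6.39, 6.40, 6.55, 6.67 and 6.34 under caloric restriction and 6.12, 6.32, 6.11 and 6.38 in HFD controls. Of the treated mice, 3 of 5 on the drug and 4 of 5 on restriction lay above every control, and none lay below the lowest. The difference from controls was 0.21 ± 0.10 under the drug and 0.24 ± 0.10 under restriction (adjusted p = 0.999 in limma), and the arms differed by -0.03 ± 0.09. The unadjusted limma p under restriction was 0.0269, and it became 0.0795 or 0.0848 when HFD control replicate 1 or 3 was left out and 0.0549 or 0.0772 when the restricted replicate 3 or 4 was left out.

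The 3 GABARAP genes, which act in later closure and fusion of the autophagosome, had lower means than controls in both arms. Gabarapl2 had 6.31, 6.05, 6.03, 5.95 and 6.21 under canagliflozin, 5.99, 6.10, 6.17, 6.14 and 6.04 under caloric restriction and 6.26, 6.33, 6.15 and 6.19 in HFD controls, a difference of -0.12 ± 0.09 under the drug and -0.15 ± 0.09 under restriction. Below every control lay 3 drug-treated and 4 restricted mice, and 1 drug-treated mouse lay near the top of the controls. Gabarapl1 had 10.002, 10.16, 9.61, 10.10 and 9.91 under canagliflozin, 10.10, 10.03, 10.04, 9.69 and 9.98 under caloric restriction and 9.92, 10.14, 10.10 and 10.14 in HFD controls, with groups that overlapped widely. Gabarap averaged 11.03 ± 0.13 (n = 5), 11.08 ± 0.16 (n = 5) and 11.13 ± 0.10 (n = 4) in the same order, and its dimmer probe set 8.02 ± 0.17, 8.09 ± 0.24 and 8.11 ± 0.16, which have the same order. The 2 LC3 genes were thus higher and the 3 GABARAP genes lower in mean than controls in both arms, which share those controls, and 0 of these 5 genes passed an adjusted p in any of the 3 comparisons.

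**Figure D2:**
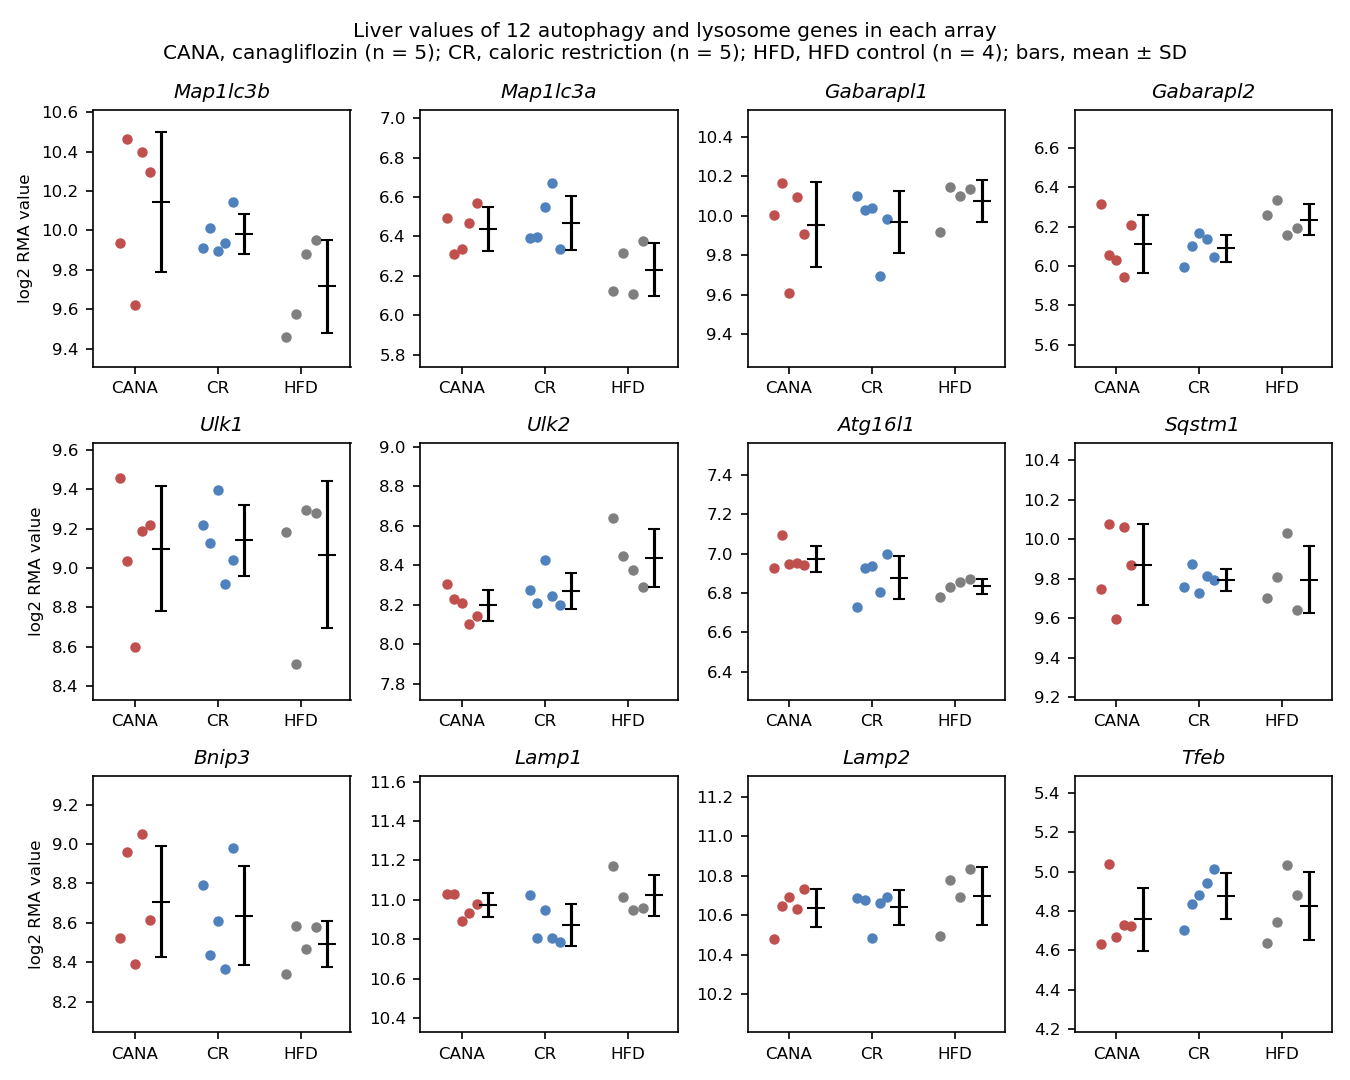
Log2 RMA values (vertical axes, all of the same span) of 12 autophagy and lysosome genes in every array, by group, with points for arrays and bars for mean ± SD. Map1lc3b is above every control in 3 of 5 drug-treated mice, Ulk2 is below every control in 4 of 5, and the groups overlap for Sqstm1, Lamp2 and Tfeb.

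The ULK complex receives the nutrient signal and starts the process. Ulk1, its main kinase, had 9.45, 9.03, 8.60, 9.19 and 9.22 under canagliflozin, 9.22, 9.13, 9.40, 8.92 and 9.04 under caloric restriction and 9.18, 8.51, 9.30 and 9.28 in HFD controls. It varied most of the 37 genes, with 1 low mouse in the drug arm and 1 in the controls, and its differences were 0.03 ± 0.17 under the drug and 0.07 ± 0.17 under restriction. Ulk2, a related kinase, had 8.31, 8.23, 8.21, 8.10 and 8.14 under canagliflozin, 8.27, 8.21, 8.43, 8.25 and 8.20 under caloric restriction and 8.64, 8.45, 8.38 and 8.29 in HFD controls. In each arm 4 of 5 mice lay below every control, and the ranges touched through 1 mouse. The difference was -0.24 ± 0.09 under the drug (adjusted p = 0.677 in limma), -0.17 ± 0.09 under restriction (adjusted p = 0.999) and -0.07 ± 0.09 between the arms. The unadjusted limma p under the drug was 0.017. Without HFD control replicate 1, the highest of the 14 arrays, the difference was -0.17 under the drug and -0.10 under restriction, and the unadjusted p under the drug was 0.0809. The scaffold Rb1cc1, known as FIP200, differed by 0.11 ± 0.09 under the drug, and Atg13 and Atg101, partners of the kinase in its complex, by 0.05 ± 0.11 and -0.14 ± 0.10.

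The lipid kinase complex makes phosphatidylinositol 3-phosphate, and its genes differed little between groups. Becn1, which encodes Beclin 1, averaged 7.06 ± 0.10 under canagliflozin (n = 5), 7.02 ± 0.04 under caloric restriction (n = 5) and 6.97 ± 0.10 in HFD controls (n = 4). Under the drug the 6 genes of this complex ran from -0.15 for Atg14, which directs the complex to the autophagosome, to 0.10 for Becn1, and under restriction from -0.16 for the catalytic subunit Pik3c3 to 0.05 for Becn1. The regulatory subunit Pik3r4 differed by 0.06 ± 0.10 under the drug, Uvrag, which acts in endosome and autophagosome maturation, by -0.07 ± 0.08, and Ambra1, a Beclin 1 partner, by -0.09 ± 0.09. Atg14 varied among mice more than the others of this complex (pooled SD 0.28), and its 95% interval under the drug ran from -0.50 to 0.20. The lipid transfer proteins Atg2a and Atg2b and the lipid-binding Wipi1 and Wipi2, which extend the membrane, lay between -0.07 and 0.04 under the drug and between -0.04 and 0.02 under restriction.

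The conjugation enzymes attach Atg8 proteins to lipid. Against controls 8 of 10 had higher means under the drug (11025 of all 22180 genes did) and 4 of 10 under restriction (11201 of all genes), 0 of 10 had an unadjusted p under 0.05 in limma in either arm, and the difference between these counts was not tested. Atg16l1, which places the conjugation machinery on the membrane, had 6.93, 7.09, 6.95, 6.95 and 6.94 under canagliflozin, 6.73, 6.93, 6.94, 6.81 and 6.996 under caloric restriction and 6.78, 6.83, 6.85 and 6.87 in HFD controls. Every drug-treated mouse lay above every control, at a difference of 0.14 ± 0.08 (limma adjusted p = 0.817), and the restricted mice lay on both sides of the controls. Atg5, which is joined to Atg12 in that machinery, had 7.71, 7.97, 7.69, 7.68 and 7.67 under canagliflozin, 7.55, 7.55, 7.66, 7.66 and 7.67 under caloric restriction and 7.55, 7.67, 7.60 and 7.67 in HFD controls. Above every control lay 4 of 5 drug-treated mice, with replicate 2 the highest. Of these, replicate 4 barely exceeded the highest control (7.676 against 7.674). The arms differed by 0.12 ± 0.08 (limma adjusted p = 0.863).

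Atg10, the enzyme that joins Atg12 to Atg5, had 5.91, 6.10, 5.67, 6.20 and 5.85 under canagliflozin and 5.98, 5.67, 5.50, 5.72 and 5.82 under caloric restriction, against 5.82, 5.86, 5.59 and 6.22 in HFD controls. It had the smallest p of the 37 genes between the arms, at 0.21 ± 0.13 (adjusted p = 0.852 in limma), with overlapping groups. Atg3, which transfers Atg8 proteins to lipid, had 8.71, 8.84, 9.07, 8.64 and 9.03 under canagliflozin, 8.78, 8.82, 8.36, 8.81 and 8.84 under caloric restriction and 8.68, 8.94, 8.76 and 8.80 in HFD controls, with 1 low restricted mouse. Atg7, the activating enzyme for both systems, differed from controls by -0.04 ± 0.10 under the drug and 0.04 ± 0.10 under restriction. Atg4c, a protease that trims Atg8 proteins, had 5.97, 6.24, 6.46, 6.34 and 6.36 under canagliflozin, 6.23, 6.40, 6.32, 6.82 and 6.32 under caloric restriction and 6.14, 5.98, 6.30 and 6.39 in HFD controls. Its difference under restriction was 0.22 ± 0.13, to which replicate 4 contributed the highest value, and the related Atg4b and Atg4d differed by -0.07 ± 0.10 and -0.02 ± 0.11. Under the drug Atg12 and Atg16l2, a relative of Atg16l1, differed by 0.05 ± 0.09 and 0.01 ± 0.14.

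Cargo receptors tie what is to be degraded to the Atg8 proteins. Sqstm1, which encodes p62, had 9.75, 10.08, 9.60, 10.06 and 9.87 under canagliflozin, 9.76, 9.87, 9.73, 9.81 and 9.79 under caloric restriction and 9.70, 9.81, 10.03 and 9.64 in HFD controls. The groups overlapped, and its differences were 0.08 ± 0.11 under the drug and -0.00 ± 0.11 under restriction. Nbr1, a related receptor, had 9.11, 9.60, 9.33, 9.24 and 9.32 under canagliflozin and 9.01, 9.40, 9.32, 9.14 and 9.14 under caloric restriction, against 9.40, 9.34, 9.29 and 9.41 in HFD controls. Restricted mice lay below every control in 3 of 5 cases, at a difference of -0.16 ± 0.11 (limma adjusted p = 0.999). Bnip3, a mitochondrial receptor induced by hypoxia, had 8.53, 8.96, 8.39, 9.05 and 8.61 under canagliflozin, 8.79, 8.44, 8.61, 8.37 and 8.98 under caloric restriction and 8.34, 8.59, 8.47 and 8.58 in HFD controls. In each arm 3 of 5 mice lay above every control and the others among them, and the differences were 0.21 ± 0.14 under the drug and 0.14 ± 0.14 under restriction. Drug-treated replicates 2 and 4 were the 2 highest of their arm for Bnip3, Map1lc3b and Sqstm1, and replicate 3 was the lowest for each of these, an observation made after the values were seen. Over all 37 genes, replicate 2 was the highest of its arm for 13 and the lowest for 3. Replicate 3 was the lowest for 13 and the highest for 8, and replicate 4 the lowest for 8 and the highest for 3. High values in replicate 2 and low values in replicate 3 were thus not confined to these 3 genes.

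Lysosomal membrane proteins and the transcription factors TFEB and TFE3 differed from controls by -0.15 to 0.12 over both arms. Lamp1, whose promoter window is printed above with 4 CACGTG copies, had 11.03, 11.03, 10.89, 10.93 and 10.98 under canagliflozin, 11.02, 10.81, 10.95, 10.80 and 10.79 under caloric restriction and 11.17, 11.01, 10.95 and 10.96 in HFD controls. Its difference was -0.05 ± 0.09 under the drug, -0.15 ± 0.09 under restriction and 0.10 ± 0.08 between the arms. Under restriction 4 of 5 mice lay below every control, replicate 3 only barely (10.946 against 10.949 in the lowest control). Lamp2, needed for fusion and for chaperone-mediated uptake, had 10.48, 10.64, 10.69, 10.63 and 10.73 under canagliflozin, 10.69, 10.68, 10.48, 10.66 and 10.69 under caloric restriction and 10.50, 10.78, 10.69 and 10.83 in HFD controls, with differences of -0.06 ± 0.09 in both arms. Tfeb had 4.63, 5.04, 4.67, 4.73 and 4.72 under canagliflozin, 4.71, 4.83, 4.88, 4.94 and 5.02 under caloric restriction and 4.64, 4.74, 5.04 and 4.88 in HFD controls. How far these values lie above background is not known here. Tfe3 averaged 6.82 ± 0.10 (n = 5), 6.93 ± 0.13 (n = 5) and 6.80 ± 0.15 (n = 4) in the same order. The other genes with CACGTG in the window differed under the drug by 0.06 (Atg3), 0.12 (Atg5), -0.04 (Atg7) and 0.21 (Bnip3), so their signs were mixed.

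**Figure D3:**
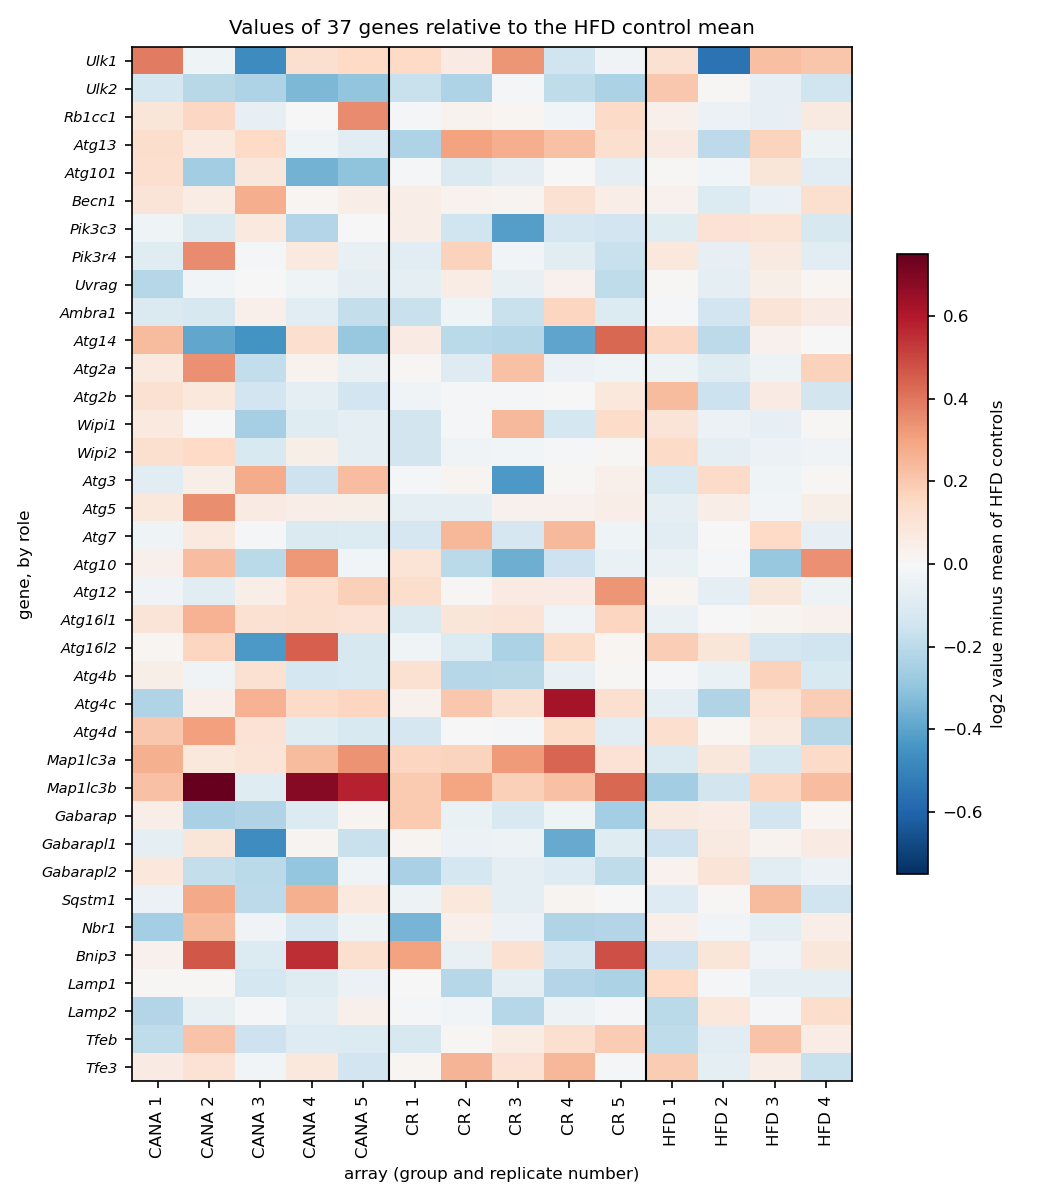
Log2 values of the 37 genes (rows, by role) in each array (columns: CANA, canagliflozin; CR, caloric restriction; HFD, HFD control), minus the mean of the 4 HFD controls; red is higher and blue lower. Map1lc3b is red in canagliflozin replicates 2, 4 and 5, Ulk2 is blue in most treated arrays, and most other rows are pale.

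Genes around this machinery were described from 5 lists. Of mTORC1 and its nutrient inputs, all 29 listed genes were measured. Under canagliflozin 14 were higher and 15 lower, with a median of -0.02 (11025 of all 22180 genes were higher). Under caloric restriction 10 were higher and 19 lower, with a median of -0.04 (11201 of all genes were higher). In limma 0 of 29 passed an adjusted p of 0.05 in any comparison. At an unadjusted p under 0.05 there were 2 of 29 under the drug, near the 6.51% of all genes, and 3 of 29 under restriction (3.93% of all genes). Of these, Ddit4, an inhibitor of mTORC1 induced by stress and glucocorticoids, was higher under the drug by 0.91 ± 0.29 and Fnip2, a partner of folliculin at the lysosome, was lower at -0.45 ± 0.13. Under restriction Ddit4 was higher by 0.82 ± 0.29, while Fnip2 (-0.30 ± 0.13) and the kinase gene Mtor (-0.21 ± 0.10) were lower. Ddit4 had 6.56, 6.27, 7.09, 7.66 and 7.43 under canagliflozin, 6.97, 6.58, 6.17, 7.38 and 7.50 under caloric restriction and 6.07, 5.84, 6.72 and 5.75 in HFD controls, so 3 of 5 mice in each arm lay above every control. Between the arms 0 of the 29 genes had an unadjusted p under 0.05 (6.05% of all genes), and the genes with the smallest p were Mtor (0.18 ± 0.09), Lamtor5 (0.28 ± 0.15) and Lamtor3 (-0.20 ± 0.12), the Lamtor genes encoding parts of the lysosomal anchor of mTORC1. Lamtor3 was also among the 3 smallest under the drug (-0.18 ± 0.12). The probe set of Lamtor5 was dim, with means of 4.00 under the drug and 3.72 under restriction, below the array medians of 4.07 to 4.13. How far it lies above background is not known here.

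Transcription factors acting on autophagy genes had 12 of 13 genes measured, of which 6 were higher and 6 lower in each arm against controls. Trp53inp1, a p53-induced gene whose product binds Atg8 proteins, had 8.88, 8.78, 8.82, 9.82 and 9.23 under canagliflozin, 8.58, 9.03, 8.36, 9.28 and 8.90 under caloric restriction and 8.09, 8.55, 8.73 and 8.27 in HFD controls. All 5 drug-treated mice lay above all 4 controls, as in 0.987% of all genes, at a difference of 0.70 ± 0.21 (adjusted p = 0.581 in limma), and the difference was 0.42 ± 0.21 under restriction and 0.28 ± 0.20 between the arms. The demethylase gene Kdm6b differed by 0.21 ± 0.15 under the drug and 0.22 ± 0.15 under restriction, and the CREB coactivator gene Crtc2 by 0.14 ± 0.13 under the drug. Foxo4 differed by -0.12 ± 0.10 under restriction and 0.16 ± 0.10 between the arms, and Trp53inp2, a nuclear partner of LC3, by -0.27 ± 0.16 between the arms.

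Lysosomal hydrolases and membrane proteins had 34 of 40 genes measured, with medians of -0.02 in both arms. Of the 34, 14 were higher and 20 lower under canagliflozin (11025 of all 22180 genes were higher). Under caloric restriction 13 were higher and 21 lower (11201 of all genes were higher). In limma 0 of 34 passed an adjusted p of 0.05 in any comparison. At an unadjusted p under 0.05, 1 was higher and 1 lower under the drug (3.21% and 3.3% of all genes). Between the arms 2 were higher and 1 lower at that threshold (3.07% and 2.98% of all genes). Ctsl, the protease cathepsin L, had 10.46, 11.00, 10.11, 10.62 and 10.48 under canagliflozin, 10.24, 10.21, 10.18, 10.16 and 10.26 under caloric restriction and 10.21, 10.32, 10.15 and 10.12 in HFD controls. It was above every control in 4 of 5 drug-treated mice, at 0.33 ± 0.13 against controls and 0.32 ± 0.12 against restriction (limma adjusted p = 0.691 and 0.785), and the peptidase Dpp7 was lower at -0.26 ± 0.10. Galns, a sulfatase, differed by -0.20 ± 0.11 against controls and -0.22 ± 0.10 against restriction, and Hexa, a hexosaminidase subunit, by 0.28 ± 0.11 against restriction. Under restriction 0 of 34 had an unadjusted p under 0.05 (3.93% of all genes), the smallest belonging to Cln3 (0.21 ± 0.11, all 5 restricted mice above all 4 controls, as in 0.703% of all genes), Gusb (-0.16 ± 0.10) and Fuca1 (0.12 ± 0.09). The proton pump that acidifies the lysosome had 15 of 16 genes measured, with medians of -0.03 under the drug and -0.02 under restriction. Of these 15 pump genes 0 passed an adjusted p of 0.05 in limma in any comparison. At an unadjusted p under 0.05 there was 1 of 15 under restriction (3.93% of all genes), 1 between the arms (6.05%) and 0 under the drug (6.51%). The subunit gene Atp6v1h had a lower mean under restriction (-0.24 ± 0.09, limma unadjusted p = 0.0207, adjusted p = 0.999). It differed by 0.20 ± 0.09 between the arms. Under the drug Atp6v1c1 (0.12 ± 0.09), Atp6ap1 (-0.12 ± 0.10) and Atp6ap2 (0.09 ± 0.09) had the smallest p. Of the pump genes next in p, Atp6v0a2 (0.13 ± 0.10) and Atp6v0e (-0.11 ± 0.09) followed under restriction, and Atp6v1c1 (0.14 ± 0.09) and Atp6ap1 (-0.13 ± 0.09) between the arms.

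Other genes of autophagosome formation, fusion and cargo binding, 32 of 32 measured, had 11 higher and 21 lower under canagliflozin, with a median of -0.07. Of all 22180 genes, 11025 were higher and 11155 lower, and the difference between these splits was not tested. The 3 of 32 with an unadjusted p under 0.05 (6.51% of all genes) were all lower (3.3% of all genes): Rubcn, an inhibitor of the lipid kinase complex (-0.29 ± 0.11), Snap29, a fusion protein (-0.26 ± 0.10), and Tmem41b, a lipid scramblase (-0.25 ± 0.10), with limma adjusted p from 0.677 to 0.711. Under restriction 14 of the 32 were higher and 18 lower (11201 of all 22180 genes were higher). Of the 32, 0 had an unadjusted p under 0.05 (3.93% of all genes). Atg4a (-0.20 ± 0.09), the glycogen receptor Stbd1 (-0.20 ± 0.10) and the endoplasmic reticulum receptor Ccpg1 (-0.17 ± 0.10) came nearest. Between the arms Ccpg1 was higher under the drug (0.26 ± 0.09) and Atg9a, the membrane carrier of the growing autophagosome, was lower (-0.22 ± 0.10), at limma adjusted p of 0.736 and 0.811, and Tmem41b differed by -0.19 ± 0.09. Atg9a had 7.01, 7.13, 7.22, 7.12 and 7.14 under canagliflozin and 7.24, 7.35, 7.39, 7.49 and 7.22 under caloric restriction, against 7.14, 6.96, 7.35 and 7.48 in HFD controls. Every drug-treated mouse lay below every restricted one, as in 0.491% of all genes, and the controls overlapped both arms.

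**Figure D4:**
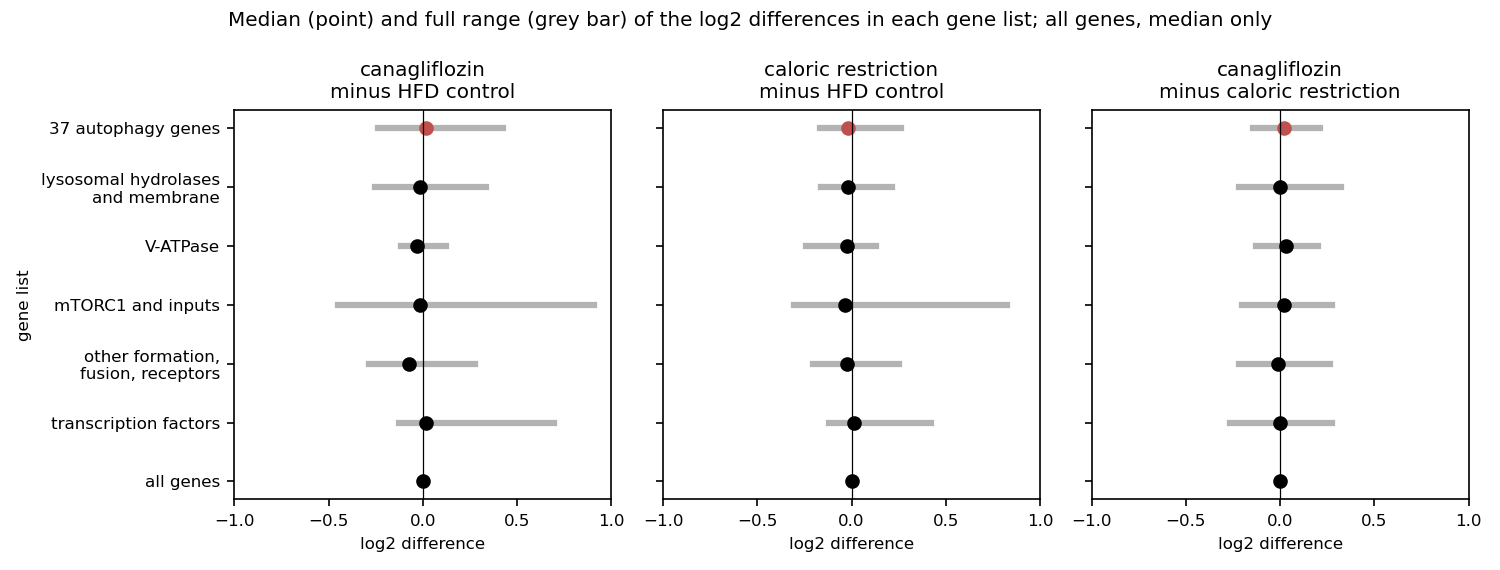
Median (point) and full range (grey bar) of log2 differences for the 37 autophagy genes and 5 lists around them, with the median over all 22180 genes, in the 3 comparisons. All medians lie between -0.07 and 0.03, and the long bars under mTORC1 and the transcription factors end at Ddit4 and Trp53inp1.

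Liver macrophages are rich in lysosomes, and bulk tissue cannot tell fewer cells of a type from less RNA per cell. Of 12 macrophage markers 10 had higher means under canagliflozin than in controls (11025 of all 22180 genes did). Against the same controls 3 were higher under caloric restriction (11201 of all genes), and 10 were higher under canagliflozin than under restriction (10865). In limma 0 of these 12 markers had an unadjusted p under 0.05 in any comparison (6.51%, 3.93% and 6.05% of all genes). Their summed linear level ran from 1577 to 2222 under canagliflozin, 1195 to 2057 under caloric restriction and 1322 to 2402 in HFD controls, led by C1qb and Clec4f, so the groups overlapped. Their part in the values of Ctsl and the other lysosomal genes was not tested. Sums for endothelial markers (1180 to 1612, 1172 to 1623 and 1249 to 1500 in the same order, led by Clec4g and Kdr) and stellate markers (1498 to 1873, 1177 to 1735 and 1353 to 1855, led by Dcn and Reln) overlapped as well. Markers of cholangiocytes (4 of 5 measured), lymphocytes (7 of 8), neutrophils (5 of 5) and adipocytes (4 of 5) were dim. Their highest marker means were 5.56, 5.23, 3.27 and 5.74, and 1 of 6 erythroid markers, Slc4a1, was measured, at 3.72. Sums for adipocyte markers overlapped between groups (66 to 150, 73 to 137 and 75 to 102). In limma 1 of 4 adipocyte markers was lower under the drug at an unadjusted p under 0.05 (3.3% of all genes). Between the arms 1 adipocyte and 1 neutrophil marker were higher (3.07%), and 1 cholangiocyte and 1 hepatocyte marker were lower (2.98%). Of these, 0 passed an adjusted p of 0.05.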

How the data were processed

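Liver total RNA (250 ng) was labelled with the WT Plus protocol and hybridised to Affymetrix arrays, as the labels' protocols state. The values deposited by the authors are log2 probe-set summaries from RMA, run in Expression Console according to the submitters' processing notes; RMA equalises array distributions, so a global change would not be seen. For the array library files and genome build, the sources used here give nothing. Of 41345 probe sets, 23521 had 1 gene symbol, 1814 several and 16010 no entry; the brightest probe set per gene gave 22180 genes, and 37 of 39 listed genes. Groups and replicate numbers came from the sample titles. Each array was taken as 1 mouse, which the labels do not state array by array.

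Group means of all 14 arrays were fitted in limma (version 3.58.1, R 4.3.3; lmFit, then eBayes, no dimness filter), with Benjamini-Hochberg adjustment over all genes per comparison. The fit was tested on simulated data. Errors are standard errors of differences and standard deviations of groups. All values were given for the 6 genes with the smallest p per comparison and 7 fixed genes, and 3 genes were named per list and comparison. The p-values set each difference against the spread between arrays within groups, an estimate that eBayes moderates with all genes. The genes and lists were chosen with earlier results of these data known.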

Additional observations from a re-analysis of the deposited data

Results flagged for a closer look

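A mouse that stood apart from the rest of its group by Dixon's test at the 95% level was found in 10 of 111 groups (37 genes in 3 groups), and chance alone gives about 1 in 20, or 5.55. In the drug arm replicate 2 was high for Atg5 (7.97, against 7.67 to 7.71 in the others), Atg16l1 (7.09, against 6.93 to 6.95) and Tfeb (5.04, against 4.63 to 4.73). Under caloric restriction, replicate 5 was high for Rb1cc1 (7.49, against 7.32 to 7.37) and Atg2b (6.88, against 6.78 to 6.80). Replicate 3 of that arm was low for Atg3 (8.36, against 8.78 to 8.84) and Lamp2 (10.48, against 10.66 to 10.69), replicate 4 was low for Gabarapl1 (9.69, against 9.98 to 10.10), and replicate 1 was low for Wipi2 (7.34, against 7.45 to 7.49). In HFD controls replicate 2 was low for Ulk1 (8.51, against 9.18 to 9.30).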

How the results depend on the processing

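The count of autophagy genes past an adjusted p of 0.05 was 0 in each of the 3 comparisons under all 9 other settings and all 14 fits that left out 1 array (limma). These settings were a fit of the 2 groups compared, a mean log2 of at least 5, array weights, cyclic loess, centring on the median, a replicate block, a robust variance with a trend, averaged probe sets and, chosen after the data were seen, the deposited order of the arrays as a covariate. The smallest adjusted p in any of them was 0.182, for Map1lc3b under the drug without canagliflozin replicate 3. The count at an unadjusted p under 0.05 was 2 under canagliflozin against controls and ran from 2 to 3 over the other settings and 0 to 3 with 1 array left out, with 0 without HFD control replicate 1. Under caloric restriction it was 1, or 2 when only the 2 groups compared were fitted (Map1lc3a and Map1lc3b), and 0 to 2 with 1 array left out: 0 without restricted mouse 4 or HFD control replicate 1 or 3, and 2 without restricted mouse 1, canagliflozin replicate 3 or HFD control replicate 4. Between the arms it was 0, and 0 to 2 with 1 array left out, with 2 (Atg10 and Map1lc3b) without canagliflozin replicate 3. The cause was not tested. The median difference of the 37 genes stayed between -0.02 and 0.04, -0.04 and 0.01, and -0.01 and 0.04 in the 3 comparisons with 1 array left out. The sign of the difference was the same in every setting for 24, 22 and 25 of the 37 genes. The largest differences that changed sign were 0.075, 0.075 and 0.089 in size. Those of at least 0.1 (12, 14 and 9 genes) kept their sign, in settings that reuse the same arrays.

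Replicate numbers are shared between groups. Deviations of same-numbered arrays had correlations from 0.04 to 0.20 (canagliflozin and controls, 4 pairs), -0.09 to 0.09 (restriction and controls, 4 pairs) and -0.01 to 0.16 (the arms, 5 pairs). Not every pair exceeded 0.1, and the numbers were not taken as pairs. Arrays with different numbers were not compared, so these values cannot decide whether arrays were paired. In the deposited order HFD control replicates 3 and 4 stand beside replicates 4 and 5 of the other arms, so equal numbers need not mean neighbouring arrays. With the replicate block, which uses the same numbers, the counts at an unadjusted p under 0.05 were 2, 1 and 0.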
